A study of Homo sapiens with 2 samples.

Results

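The genes described here are 9 human genes of the visual cycle and the retinal pigment epithelium: RPE65, LRAT, RLBP1, RDH5, RDH11, RDH10, STRA6, BEST1 and TTR. They were chosen by name, and all 9 were found among the 19970 protein-coding genes of the GENCODE 44 annotation on chromosomes 1-22 and X of hg38. The cells were ARPE-19, an established line of human retinal pigment epithelium, kept in normal culture and taken in interphase. MNase-seq was done on 2 samples labelled as batches 1 and 2. There was no treated or control group, and 1 list of called positions was deposited without naming a batch. Each row of the list is 1 bp wide and carries no height or score, so a gene was described by where positions fell, how many there were and how far apart they lay. With 1 list and no replicates no difference could be tested. Intervals given with counts cover counting error only, and the read depth behind the list is unknown. Over all 2632955 positions the density was 0.904 per kb.

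The visual cycle regenerates the light-sensitive chromophore of photoreceptors. Vitamin A reaches the pigment epithelium bound to carrier proteins, is stored there as retinyl esters, isomerised to the 11-cis form and oxidised to 11-cis-retinal, which returns to the photoreceptors. Nucleosomes are the basic units of chromatin, and the DNA just before the start of an active gene is commonly free of them. Transcription was not measured in these samples, and neither was the identity of the cells beyond their label.

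RPE65 is the isomerohydrolase that turns retinyl esters into 11-cis-retinol. It lies on the minus strand of chromosome 1 at 68428822 to 68449954, with the start site of its MANE Select transcript at 68449954 and 14 exons. A listed position stood 124 bp upstream of that start and another 289 bp upstream. Downstream, the positions lay in introns at 854, 1076, 1452 and 1728 bp. RPE65 and TTR were the members with a position inside the promoter window from -200 to +50 bp. The window within 2 kb either side of the start held 6 positions, against 3.37 expected from the density of the surrounding 1 Mb (ratio 1.78, 95% exact Poisson interval 0.654 to 3.88). The promoter is shown because the nearer position falls in it. The sequence is RefSeq's for GRCh38.p14, minus strand, chr1:68449955-68450204, and holds the 250 bases before the start. Capitals mark the 147 bases centred on the position 124 bp upstream, as a nucleosome would cover them if the listed base is its centre, which the list does not state.
RPE65 promoter: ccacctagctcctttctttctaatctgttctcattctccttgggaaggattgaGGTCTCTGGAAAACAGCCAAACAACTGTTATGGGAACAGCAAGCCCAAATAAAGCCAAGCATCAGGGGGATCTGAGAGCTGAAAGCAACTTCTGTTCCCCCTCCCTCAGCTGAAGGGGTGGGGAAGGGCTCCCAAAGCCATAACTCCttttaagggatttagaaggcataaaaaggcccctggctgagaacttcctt

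RLBP1 encodes the retinal carrier that holds 11-cis-retinoids inside the pigment epithelium. It lies on the minus strand of chromosome 15 at 89209869 to 89221614 (start site at 89221579, 9 exons), in a densely called part of that chromosome with 2.42 positions per kb in the surrounding 1 Mb. A group of 3 positions stood 214, 299 and 331 bp upstream of the start. Others lay 1050 and 1457 bp upstream and, downstream, at 372, 1051, 1623 and 1840 bp, the last of them in exon 2. These 9 positions were the most of any member, but 9.66 were expected at the local density (ratio 0.931, interval 0.426 to 1.77). The start itself lay in a gap of 586 bp, the shortest among the members. RDH11, a retinol dehydrogenase, lies on the minus strand of chromosome 14 at 67676800 to 67695793 (start site at 67695764, 7 exons). Its positions near the start stood 883 and 1041 bp upstream and 721 bp downstream. These 3 compare with 3.31 expected (ratio 0.906, interval 0.187 to 2.65), and the median gene of similar length also had 3. STRA6 also held a searched motif, but all 250 bases before its start are annotated as exon and are not shown. The promoter stretches below are those of RLBP1 and RDH11, in which searched motifs were found as well. They are from the same RefSeq table, run from 250 bp before the start up to the outermost annotated exon base, and lie at chr15:89221615-89221829 and chr14:67695794-67696014, both minus strand. Capitals mark matches to TAATCC, the core bound by OTX and CRX factors, or CATGTG, an E-box type that MITF can bind, on either strand.
RLBP1 promoter: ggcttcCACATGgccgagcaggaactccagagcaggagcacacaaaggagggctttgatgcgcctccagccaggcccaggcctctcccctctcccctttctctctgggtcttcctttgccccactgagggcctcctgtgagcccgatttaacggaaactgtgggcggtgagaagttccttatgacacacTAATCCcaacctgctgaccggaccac
RDH11 promoter: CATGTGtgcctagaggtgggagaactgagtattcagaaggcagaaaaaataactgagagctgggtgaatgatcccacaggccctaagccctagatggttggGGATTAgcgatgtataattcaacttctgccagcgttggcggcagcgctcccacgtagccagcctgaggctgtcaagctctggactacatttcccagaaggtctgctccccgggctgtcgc

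RefSeq promoter entries at the start used here were found for 6 of the 9 members, all but RDH10, BEST1 and TTR. TAATCC was found on either strand in the 250 bp before the start of RLBP1, RDH11 and STRA6, and in 5.62% of 35116 RefSeq promoters of the same length. CATGTG was found in RLBP1 and RDH11, and in 9.42% of those promoters. The other E-box type searched, CACGTG, was in none of the 6 and in 6.34% of all promoters. TATAAA, the usual letters of that core promoter element, was in none of the 6 and in 10.7% of all. These motifs do not overlap one another in the members. The TAATCC match of RLBP1 begins 61 bp before the start and its middle lay 155.5 bp from the nearest listed position. The CATGTG match of the same promoter lay 27.5 bp from one, inside the stretch that a nucleosome centred there would cover. In RDH11 the TAATCC and CATGTG matches lay 736.5 and 635.5 bp from the nearest position, and in STRA6 the TAATCC match lay 778.5 bp away. All 250 bases before the STRA6 start are annotated as exon in some transcript. A match is a run of letters and not a measured binding site.

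LRAT makes the retinyl esters on which RPE65 acts. It lies on the plus strand of chromosome 4 at 154626945 to 154753120, and most of that span comes from far upstream annotated ends, since the start site used here is at 154744000 with 3 exons. The start lies in a CpG island at 154742658 to 154744681. Positions stood 310, 1265 and 1458 bp upstream and 1484 and 1791 bp downstream, which leaves a gap of 1794 bp that takes in exons 1 and 2. That is 5 positions against 4.13 expected (ratio 1.21, interval 0.393 to 2.83). The ratio depended on the setting. It was 0.559 when the expectation took account of GC content, 0.484 within 1 kb of the start and 0.242 around the outermost annotated 5' end.

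RDH5 oxidises 11-cis-retinol to 11-cis-retinal, the last enzymatic step of the cycle. It is a compact gene on the plus strand of chromosome 12 at 55720367 to 55724705 (start site at 55720393, 5 exons) that a readthrough gene, ENSG00000258311, overlaps from BLOC1S1 upstream. Positions stood 870 and 1779 bp upstream and, downstream, at 439, 643, 1120 and 1823 bp, all in introns. The 6 positions compare with 3.35 expected (ratio 1.79, interval 0.657 to 3.90), or a ratio of 1.13 with the GC expectation. The positions upstream lie within the BLOC1S1 gene and cannot be assigned to one gene or the other.

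RDH10, which oxidises retinol and is best known for making retinoic acid precursors in the embryo, had the emptiest start. It lies on the plus strand of chromosome 8 at 73294602 to 73325281 with its start at 73294602 and 6 exons, inside a CpG island at 73293989 to 73295944. RPL7, a ribosomal protein gene on the opposite strand, has its start at -969 bp from that of RDH10, and both positions near the start of RDH10 lie within it. Only 2 positions lay within 2 kb, at 1096 and 1261 bp upstream, against 4.47 expected (ratio 0.448, interval 0.0542 to 1.62). None lay within 1 kb. Over genes that start in an island the median ratio within 2 kb was 0.585. The first position downstream was at 2655 bp, so the gap across the start measured 3751 bp, longer than in 68.8% of all protein-coding genes and in 64.6% of those that start in an island.

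STRA6 is the membrane receptor that takes up retinol from its plasma carrier. It lies on the minus strand of chromosome 15 at 74179466 to 74212267 (start site at 74202787, 19 exons), where the surrounding 1 Mb has 2.58 positions per kb, the highest local density among the members. The nearest positions were 878 bp upstream and 1728 bp downstream. That gap of 2606 bp holds exons 1 and 2 and is the longest over the whole gene and its flanks. It was longer than in 53.0% of all protein-coding genes and in 61.6% of those that start outside islands. Those genes were not matched for local density. Further positions stood 1446 and 1476 bp upstream and 1857 and 1941 bp downstream. The 6 positions compare with 10.3 expected (ratio 0.581, interval 0.213 to 1.26), and within 1 kb the ratio was 0.193. The gene CCDC33 overlaps this start on the other strand.

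TTR carries thyroid hormone and, with retinol-binding protein, retinol in plasma, and the pigment epithelium also makes it. The start site is at 31591877 on the plus strand of chromosome 18, in a gene annotated from 31557009 to 31598833 with 4 exons. TTR had a position 46 bp downstream of the start, 1 bp from the middle of exon 1. The others stood 835, 1215 and 1684 bp upstream. These 4 compare with 3.72 expected (ratio 1.08, interval 0.293 to 2.76). Around the outermost annotated 5' end the ratio was 1.88. BEST1, a chloride channel of the basolateral membrane of the pigment epithelium rather than an enzyme of the cycle, lies on the plus strand of chromosome 11 at 61950063 to 61965515 (start site at 61950351, 11 exons). Its positions were lopsided. One stood 764 bp upstream, and 6 lay in introns downstream at 538, 706, 739, 1278, 1676 and 1823 bp. The 7 positions compare with 5.65 expected (ratio 1.24, interval 0.498 to 2.55).

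**Figure D1:**
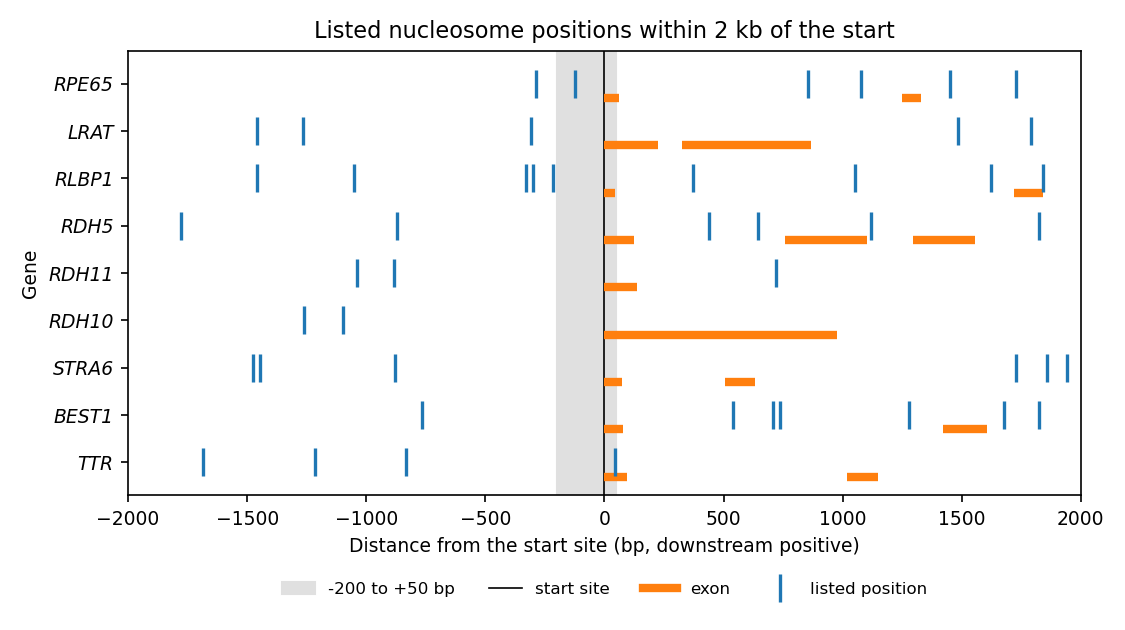
Listed nucleosome positions (blue ticks) within 2 kb of the start site of each member, with distance from the start in bp on the x axis, downstream to the right, exons in orange and the window from -200 to +50 bp in grey. Ticks fall in the grey window for RPE65 and TTR, and RDH10 has 2 ticks in all.

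Across the members the start windows held 48 positions against 48.0 expected at the local density, a ratio of 1.00 (95% exact Poisson interval 0.737 to 1.33). The 7 members off chromosome 15 had 33 against 28.0 (ratio 1.18, interval 0.811 to 1.65) and the pair on it 15 against 20.0 (ratio 0.750, interval 0.420 to 1.24). Of the 48 positions, 23 lay upstream, 23 in introns and 2 in exons. Fewer positions than expected were found at 4 of the 9 starts. The share was 68.1% over all protein-coding genes and 55.5% over those that start outside islands. The median ratio of the members was 1.08, and it was 0.705 over all genes and 0.895 over the 8860 genes that start outside islands, as 7 of the members do. No position from -200 to +50 bp was listed at 7 of 9 members, close to the 85.8% of all genes and the 78.4% of genes that start outside islands. At the expected density that window would hold 0.208 to 0.648 positions per gene, so a single empty promoter says little at this density. None of the 9 had a position from 100 to 175 bp downstream of the start, the stretch where the first nucleosome of a gene is often found, and 14.9% of all genes had one. The first downstream position lay between 46 bp in TTR and 2655 bp in RDH10, with a median of 721 bp. The median over all genes was 1039 bp (quartiles 286 and 2446 bp), and over genes that start outside islands 692 bp. The gap across the start had a median of 1309 bp among the members and 2425 bp over all genes (quartiles 1171 and 4380 bp). For genes that start outside islands the median gap was 1918 bp.

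Exons of the members were then counted. The chosen transcripts have 78 exons, of which 25 (32.1%) held at least 1 position, and 19.9% of the 209590 exons of all protein-coding genes did. Last exons are long, and 7 of 9 held a position, against 59.4% over all genes. Among the other exons 18 of 69 did (26.1%), against 15.7%. Exons of the members held 30 positions in all, and 29.5 were expected at the local density (ratio 1.02, interval 0.686 to 1.45). Introns held 150 against 166 expected (ratio 0.902, interval 0.764 to 1.06). Summed over all protein-coding genes the ratios were 0.982 in exons and 0.913 in introns. Fewer positions in exons than expected were found in 4 of 9 members, against 58.1% of all genes and 49.8% of genes that start outside islands.

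RPE65 and STRA6 were the extremes. RPE65 had 6 positions in exons, 1 each in exons 3, 4, 8, 9, 10 and 11, where 2.19 were expected (ratio 2.74, interval 1.00 to 5.95). With the GC expectation that ratio was 3.24. STRA6 had 2 positions in 19 exons, in exons 5 and 19, where 6.99 were expected (ratio 0.286, interval 0.0346 to 1.03), and 0.250 (interval 0.0303 to 0.902) with the GC expectation. RLBP1, on the same chromosome at a similar local density, had 1 position in each of 6 of its 9 exons, 6 against 3.96 expected (ratio 1.52, interval 0.557 to 3.30). RDH11 had a position in exons 2, 5 and 7 and BEST1 in exons 5, 10 and 11. The BEST1 ratio was 0.961, and 0.489 when exons of all its transcripts were counted. In LRAT the 3 exonic positions all lay in the last exon, in RDH5 both did, and in RDH10 3 of 4 did. The RDH5 ratio was 1.87, and 1.16 with the GC expectation. TTR had its only exonic position in exon 1, for a ratio of 1.75, or 0.934 with the GC expectation.

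Several exonic positions lay near the middle of a coding exon. In RLBP1 exon 5, at 205 bp, the position at 89217221 was 1 bp from the exon's middle, and in RDH11 exon 2, at 119 bp, the position at 67692989 was 4 bp from it. In RPE65 exon 3, at 151 bp, the position at 68446808 was 23 bp from the middle. The 147 bases centred on each are shown to give the sequence that a nucleosome at these places would wrap, from the hg38 reference on the minus strand, at chr15:89217148-89217294, chr14:67692916-67693062 and chr1:68446735-68446881. Capitals mark exon bases. All 147 bases are exonic in RLBP1, 119 in RDH11 and 126 in RPE65, and the GC content is 68.0%, 51.0% and 53.1%.
RLBP1 exon 5: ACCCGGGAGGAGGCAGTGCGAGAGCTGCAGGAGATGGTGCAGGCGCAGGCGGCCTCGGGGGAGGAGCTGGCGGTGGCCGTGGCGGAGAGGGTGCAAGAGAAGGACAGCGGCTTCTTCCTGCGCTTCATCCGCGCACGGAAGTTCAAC
RDH11 exon 2: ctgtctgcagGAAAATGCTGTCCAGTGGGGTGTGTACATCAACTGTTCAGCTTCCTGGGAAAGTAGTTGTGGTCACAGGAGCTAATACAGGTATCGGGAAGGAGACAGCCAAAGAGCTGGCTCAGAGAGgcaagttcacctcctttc
RPE65 exon 3: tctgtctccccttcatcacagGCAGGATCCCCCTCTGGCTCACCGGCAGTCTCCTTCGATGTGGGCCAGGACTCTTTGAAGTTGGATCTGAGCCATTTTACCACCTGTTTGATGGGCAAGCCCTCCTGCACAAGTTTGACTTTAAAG

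Over whole genes the members spread to both sides of their surroundings. Between the annotated ends RPE65 held 29 positions against 17.8 expected at the local density (ratio 1.63, interval 1.09 to 2.34), and TTR 63 against 38.9 (ratio 1.62, interval 1.246 to 2.07). RDH10 held 18 against 34.3 (ratio 0.525, interval 0.311 to 0.830) and STRA6 54 against 84.7 (ratio 0.637, interval 0.479 to 0.832). Intervals above 1 were thus found in 2 of 9 members, against 13.8% of all genes, and intervals below 1 in another 2, against 26.5%. The interval took in 1 for the other 5. Among genes that start outside islands, as most members do, the shares were 16.9% above 1 and 15.2% below. Among genes that start in an island, as LRAT and RDH10 do, they were 11.4% and 35.5%. RDH5 had 8 positions against 3.64 (ratio 2.20, interval 0.950 to 4.34, and 1.42 with the GC expectation), RLBP1 38 against 28.4 (ratio 1.34), RDH11 16 against 15.7 (ratio 1.02), LRAT 123 against 130 (ratio 0.945) and BEST1 20 against 21.8 (ratio 0.916). Ratios under 1 were found in 4 of 9 members, in 62.6% of all genes and in 52.2% of genes that start outside islands.

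**Figure D2:**
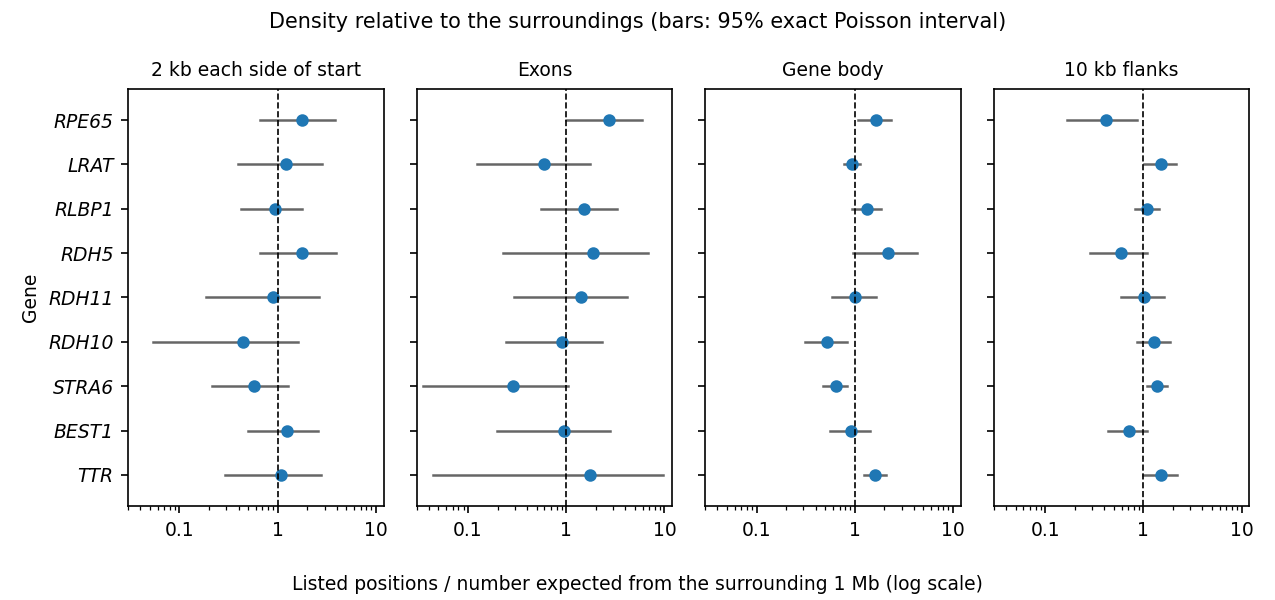
Listed positions divided by the number expected from the surrounding 1 Mb (log scale) around the start, in exons, over the gene body and in the 10-kb flanks of each member, with 95% exact Poisson intervals as bars. RPE65 lies above 1 over its body and below 1 in its flanks, and STRA6 the other way round.

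In several members the flank ratio lay on the other side of 1 from the body ratio. For LRAT, RDH5 and RDH10 the interval of the body, the flanks or both took in 1. How often the sides differ over all genes was not counted. The 10 kb on either side of RPE65 held 7 positions where 16.8 were expected (ratio 0.416, interval 0.167 to 0.856). STRA6 had 72 in its flanks against 51.7 (ratio 1.39, interval 1.09 to 1.76) and LRAT 31 against 20.6 (ratio 1.50, interval 1.02 to 2.13). In RDH10 the flanks held 29 against 22.3 (ratio 1.30, interval 0.869 to 1.86), with 7 of them before the start and 22 past the 3' end. RDH5 flanks held 10 against 16.8 (ratio 0.597, interval 0.286 to 1.10). TTR had an interval above 1 in both, with 28 against 18.6 in its flanks (ratio 1.51, interval 1.00 to 2.18). RLBP1 had ratios above 1 in both, 1.34 and 1.10, with intervals that took in 1.

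The density of TTR did not belong to its main transcript. The MANE Select transcript spans 6.95 kb and held 6 positions against 6.45 expected (ratio 0.930, interval 0.341 to 2.02). The 34.9 kb between the outermost annotated 5' end and the start site held 57 against 32.4 (ratio 1.76, interval 1.33 to 2.28). With the GC expectation the ratio over the annotated body was 1.19 and its interval, 0.917 to 1.53, took in 1. In STRA6 the transcript and the stretch upstream of it were both sparse, with 39 positions against 60.2 (ratio 0.647, interval 0.460 to 0.885) and 15 against 24.5 (ratio 0.613, interval 0.343 to 1.01). For LRAT the transcript of 9.12 kb held 6 against 9.41 (ratio 0.637, interval 0.234 to 1.39), and nearly all positions of the annotated body lay upstream of it.

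**Figure D3:**
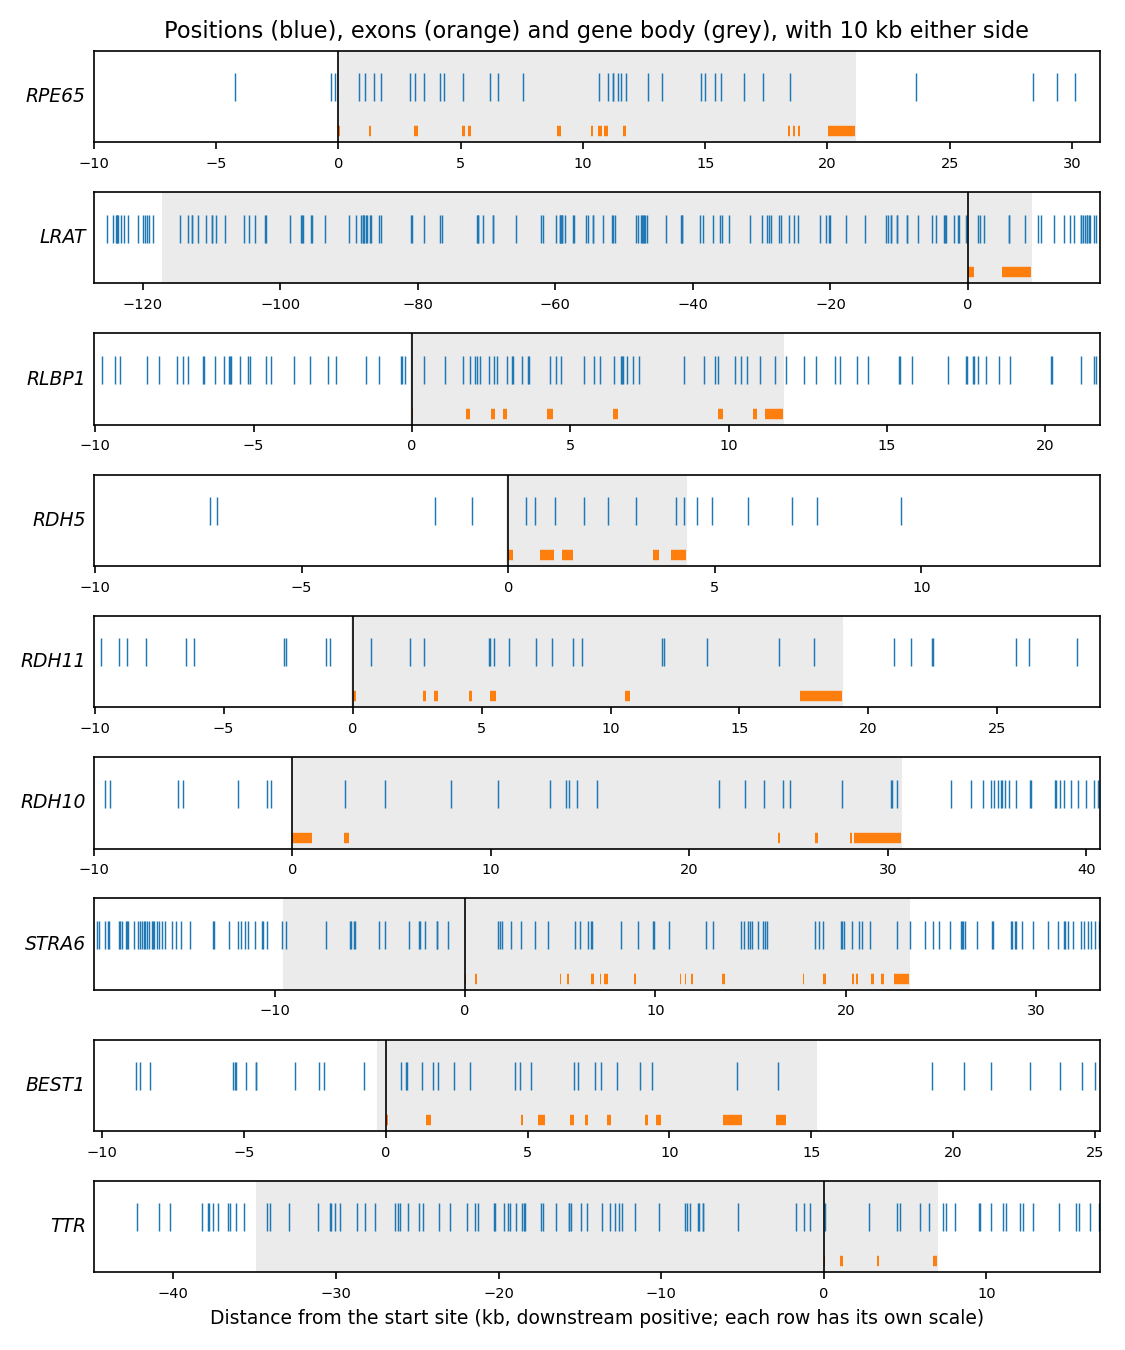
Positions (blue ticks), exons of the chosen transcript (orange) and annotated gene body (grey) over each member with 10 kb either side, by distance from the start site in kb, downstream to the right, each row on its own scale. The TTR and LRAT bodies lie mostly upstream of the start site, and RPE65 has no tick over its last 3 exons.

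Over the body plus 10 kb either side most members lay close to their neighbourhood. The ratios ran from 0.798 in BEST1 to 1.58 in TTR with a median of 1.02. The median was 0.919 over all genes and 0.995 over genes that start outside islands. Ratios under 1 were found in 4 of 9, against 58.9% of all genes and 50.6% of those outside islands. TTR alone had an exact binomial interval above 1 (1.29 to 1.92), 1 of 9 members against 17.9% of all genes. None had an interval below 1, against 30% of all genes. Among genes that start outside islands the shares were 21.6% above and 21.1% below. The calls of the members depended on base composition. With the GC expectation the TTR ratio was 1.23 and its interval, 0.999 to 1.49, took in 1. With it RDH5 (0.621, interval 0.369 to 0.975), RDH10 (0.740, interval 0.546 to 0.977) and STRA6 (0.811, interval 0.678 to 0.961) had intervals below 1, and the share of all genes was not computed for that setting. Each member was also set beside all protein-coding genes of similar length, from 0.8 times its own to the inverse of that, 1088 of them for RDH5 and up to 2404 for TTR. The ratio of TTR exceeded that of 94.3% of such genes. RLBP1 stood above 71.6%, LRAT above 67.2%, RPE65 above 61.3%, RDH11 above 59.97%, STRA6 above 52.9%, RDH5 above 42.5%, RDH10 above 40.4% and BEST1 above 36.2%. Apart from TTR every member lay between the quartiles of its length class. Counted between the annotated ends alone, TTR stood above 93.1%, RDH5 above 92.6% and RPE65 above 89.6% of their length classes, and RDH10 above 19.8%.

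**Figure D4:**
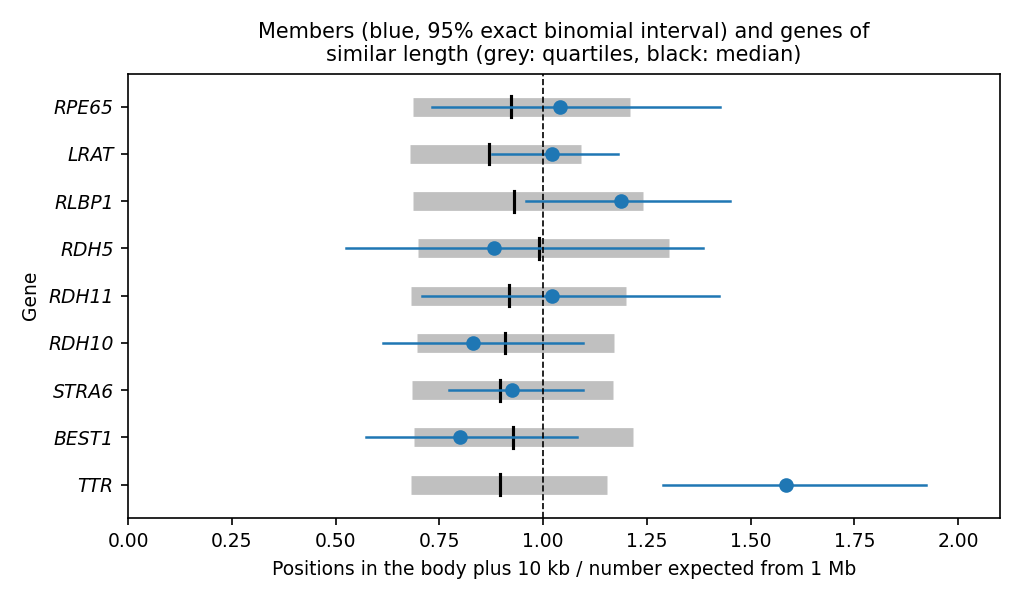
Ratio of listed to expected positions over the body plus 10 kb for each member (blue point, 95% exact binomial interval) beside protein-coding genes of similar length (grey bar from the lower to the upper quartile, black line at the median). TTR at 1.58 is the one member outside the grey bar of its length class.

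Spacing was closest in the members on chromosome 15. The median distance from one position to the next was 221 bp in STRA6 and 268 bp in RLBP1, and between 402.5 bp in RDH10 and 776.5 bp in RDH11 elsewhere. Of 627 neighbour distances pooled over the members, 100 (15.9%) were 150 to 220 bp, about the repeat of adjacent nucleosomes. The median gene had 13.3%, which is not a pooled share. Distances under 60 bp, too short for separate nucleosomes, made up 66 (10.5%). Of these STRA6 had 20 among its 125 distances, LRAT 17 among 153 and RLBP1 12 among 90. The share over all genes was not counted. The share at 150 to 220 bp was highest in RDH10, with 12 of 46 distances (26.1%), and lowest in RDH11, with 2 of 32 (6.25%). The longest run of regular neighbours was 6 positions in STRA6. It lay from 32337 to 33293 bp downstream of the start, past the 3' end, with steps of 165, 201, 185, 200 and 205 bp. RDH10 had 4 positions in a row past its 3' end, with steps of 187, 186 and 176 bp. In RPE65 the longest run lay inside the gene, from 11245 to 11749 bp, with 4 positions 178, 151 and 175 bp apart, the last of them in exon 10. The median longest run in the length classes of STRA6, RDH10 and RPE65 was 2 steps. It was also 2 for LRAT and RDH11, whose own longest run was 1 step. Length classes were not matched for local density.

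**Figure D5:**
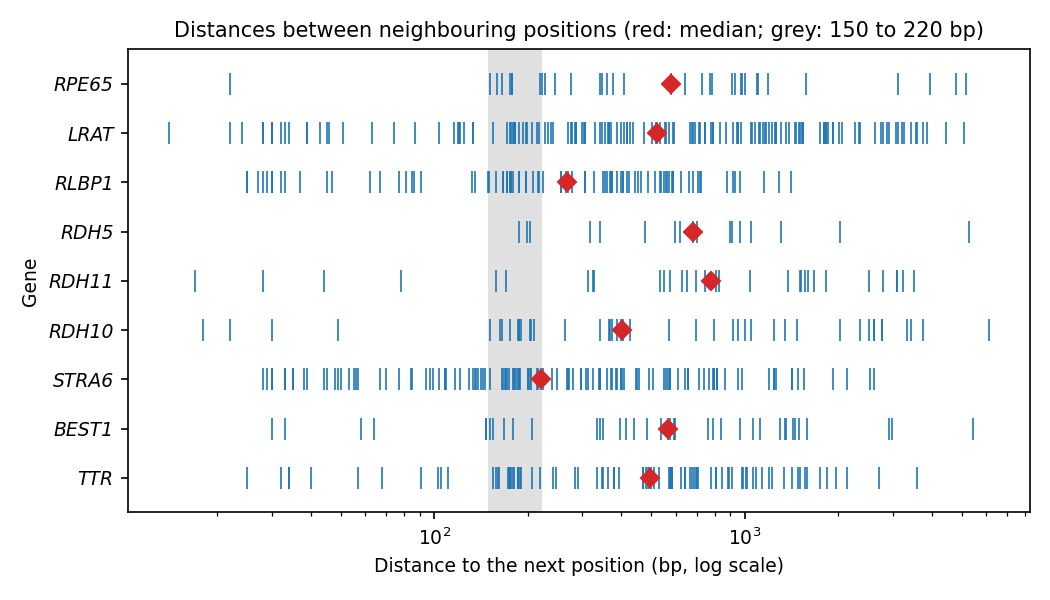
Distances between neighbouring positions over the body plus 10 kb of each member (blue ticks, bp, log scale), with the median as a red diamond and 150 to 220 bp in grey. Medians of STRA6 and RLBP1, at 221 and 268 bp, are the shortest.

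The longest gap of a member ran from 1413 bp in RLBP1 to 6110 bp in RDH10, with a median of 5084 bp. That of RDH10 lay from 15372 to 21482 bp downstream of the start, in intron 2. RPE65 had one of 5167 bp, from 18454 to 23621 bp, that holds exons 12, 13 and 14 and runs past the 3' end, with a GC content of 33.0%. The median longest gaps of their length classes were 5388 and 4938 bp. The members on chromosome 15, at 2.42 and 2.58 positions per kb, had the shortest: 1413 bp in RLBP1 and 2606 bp in STRA6. Of genes of like length 3.09% and 4.24% had a shorter longest gap, but those genes were not matched for local density. The longest gap of STRA6 holds its own start. That of RDH11 holds the start of RDH12, that of BEST1 the start of FTH1, the ferritin heavy chain gene that overlaps its 3' end, and that of RDH5 the starts of BLOC1S1 and the readthrough gene upstream. How often the longest gap of other genes holds a start was not counted. Gaps were not all AT-rich, with 57.3% GC in the gap of STRA6 and 52.0% in that of BEST1, but 29.8% in that of LRAT. The 147 bp around positions averaged 45.8% GC in RPE65, where the body plus 10 kb has 37.9%, and 56.7% in STRA6, where it has 55.0%. The same comparison was not made for other genes. The part of base composition in the gaps was not tested, and how uniquely reads map in each gap was not measured.

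Other genes of the retinoid cycle, of photoreceptors or of retinoid binding and transport were counted the same way. The 13 genes were ABCA4, RDH8, RDH12, RDH14, DHRS3, DHRS9, RBP3, RBP4, RGR, RRH, SAG, GRK1 and CRABP1. Over body plus 10 kb they held 943 positions against 673 expected (ratio 1.40, interval 1.31 to 1.49), with a median ratio of 1.39. Of the 13, 8 had an interval above 1 and 1 below. The shares were 17.9% and 30% of all genes, and 21.6% and 21.1% of genes that start outside islands. The 9 members held 636 against 615 (ratio 1.03, interval 0.955 to 1.12). This difference was not tested, because genes of 1 list are not replicates. The highest ratio was that of RBP3, the retinoid carrier between photoreceptors and pigment epithelium, with 61 positions against 18.6 expected. Its surrounding 1 Mb had 0.629 positions per kb, the lowest local density of the 13. The GC expectation was not computed for these genes. Near the start SAG, the rod arrestin, had the most positions, 9 against 6.22 expected, and DHRS3 and RRH the fewest, 1 each. No position from -200 to +50 bp was listed at 9 of these 13 starts. The share was 85.8% of all genes and 78.4% of genes that start outside islands. RDH12 lies beside RDH11, and 6 of the positions in the RDH11 flank fall within it. Another annotated gene, ENSG00000258466, overlaps the RDH11 body on the same strand and shares 18 positions of the RDH11 body plus 10 kb.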

How the data were processed

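MNase-seq was done on 2 samples of interphase ARPE-19 cells. Per the labels' protocols, chromatin was digested for 5 min at 37 °C and fragments of 150 bp were recovered from a gel. Bowtie2 and hg38 are named in the submitters' processing notes. The caller, its threshold and whether batches were pooled are not given in the sources used here. The deposited list has 2634347 rows with a coordinate and no height, and the start plus 1 was used as the position. Repeated rows were removed. Expected numbers are the determined bases of a region times the density of the 1 Mb centred on the gene. For the GC expectation, every base counts by how densely positions fell, over the genome, on bases of like GC content (200 bp windows, steps of 2%), with the same 1 Mb total. Start sites are those of MANE Select transcripts, else canonical ones. CpG islands were found from sequence (longer than 500 bp, GC of 55% or more, CpG above 0.65 of expectation). Intervals are 95% exact Poisson, or Clopper-Pearson binomial for body plus 10 kb. Of 19970 genes, 19958 had a local density above 0 and a ratio. Of the measures, only the ratios around the start and over body plus 10 kb were checked on simulated positions. These were drawn at random on 1 chromosome, more densely than in the list, and the gene was left out of its surrounding window. All 9 members are named, and of the list of other retinoid and photoreceptor genes those with the most and fewest positions near the start. RBP3 was named after its value was seen. From that list 2 genes are not reported here and were left out of its counts. The members and lists were chosen with earlier results of these data known. Python 3.11.15, numpy 2.4.6, scipy 1.17.1, numba 0.67.0 and matplotlib 3.10.9 were used.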

Additional observations from a re-analysis of the deposited data

How the results depend on the processing

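No paired analysis was possible because the list does not name a batch, and for the same reason no replicate could be left out. The 5 summary results were recomputed under 29 alternatives, and none moved past the limit set for it (the counting interval of a summed ratio, that of the median gene for a median, 1.5 times for a count). For the number of empty starts the limits were 4.67 and 10.5, so with 9 members no rise could pass. The same limits were used where 7 members were left. The start window ratio ran from 0.774 with the GC expectation to 1.18 without the members on chromosome 15, the number of empty starts from 6 to 8 of 9 (5 of 7 without chromosome 15), the median ratio over body plus 10 kb from 0.908 to 1.02 and the exon ratio from 0.796 to 1.19. Settings that took the chosen transcript as the body or left out chromosome 15 were added after the data were seen. Of 252 alternatives for single genes, 238 stayed within the interval. Of 243 for ratios, 29 lay on the other side of 1 from the reported value, and in all but 1 of them the reported interval took in 1. The exception was the TTR body, at 0.93 when the chosen transcript, a shorter stretch, replaced the annotated body. Counts of 2 to 9 positions per start limit every single-gene ratio there.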
